A study of Mus musculus with 25 samples.

Results

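The comparison described here is the second step of a dose series, from 2.5 to 5 µM CHIR99021, in unedited E14 cells, a feeder-free line of mouse embryonic stem (ES) cells. It was defined by the dose labels alone and holds 4 of the 25 RNA-seq libraries of the series, 2 at each dose. All 4 carry wild-type β-catenin and were treated for 48 h in serum medium with leukemia inhibitory factor. The question behind the series was how mutations in the degron of β-catenin change signalling. The full dose series has 10 libraries, 2 each at 0, 2.5, 5, 7.5 and 10 µM, and the other 15 libraries are clonal E14 lines with a single heterozygous *Ctnnb1* substitution at codon 37, 41 or 45. Each such clone was picked as 1 colony and grown without CHIR99021. No source states whether the 2 libraries of a dose came from separate cultures, so p-values measure only the spread between libraries, which may be technical.

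CHIR99021 inhibits GSK3, the kinase that marks β-catenin for degradation in the cytoplasmic destruction complex. Stabilized β-catenin enters the nucleus and acts with TCF and LEF factors, which bind DNA themselves and repress many of the same genes when β-catenin is absent. In mouse ES cells the pathway relieves TCF7L1-mediated repression of pluripotency genes, induces its own negative regulators such as *Axin2*, and at higher activity turns on genes of the primitive streak.

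The values were counts of unique molecular identifiers (UMIs), 1 per captured 3′ mRNA end, and are given as CPM, a gene's count divided by the library's total and scaled to a fixed total that is the same for all libraries. The 4 libraries held 607895 to 2083398 counts, in which a count of 0 allows up to 3 counts, or 1.44 to 4.94 CPM. This limit covers counting error only. The 10 libraries of the dose series fell into 2 sets by the share of mitochondrial counts, 0.485 to 0.562% in 4 libraries and 0.986 to 1.46% in 6, and the former held fewer counts (306157 to 940544, against 1311779 to 2083398). Replicate 1 of both doses lay in the low set and replicate 2 of both doses in the high set, so the ratio of 5 to 2.5 µM could be read within each set. The sum of 8 ES cell markers was 2699 and 2688 CPM at 2.5 µM and 2208 and 2343 CPM at 5 µM, and none of the 8 was at 0 in all 4 libraries. Among markers of other cell types, the 13 of primitive endoderm summed to 942 to 1010 CPM at 2.5 µM and 1016 to 1068 CPM at 5 µM. The 10 of trophectoderm summed to 714 to 752 and 860 to 1017 CPM, and the 10 of neural cells to 57.9 to 66.1 and 46.1 to 58.1 CPM. The 8 of fibroblasts summed to 94.8 to 107 and 66.2 to 75.7 CPM, most of it *Col1a1* (means of 61.7 and 36.4 CPM). The 15 of primitive streak and mesendoderm summed to 94.8 and 119 CPM at 2.5 µM and to 194 and 174 CPM at 5 µM. Of these, *T* alone had means of 36.9 and 103 CPM. *Foxa2*, *Neurog2*, *Lum*, *Cer1* and *Msgn1* were at 0 in all 4 libraries. In these bulk samples, fewer cells of a type and less RNA per cell cannot be told apart, and the part of such cells in the results below was not tested.

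Few genes passed the test between 2.5 and 5 µM, and their number depended on the method, as given in the closing section. The posterior homeobox gene *Cdx1*, the Wnt feedback genes *Axin2* and *Sp5*, the mesoderm regulator *T*, the nuclear effector *Lef1*, and *Trpm1*, *Msx1*, *Hoxd9*, *Cited1* and *Gbx2* rose by 1.86- to 3.85-fold. The Nodal antagonist *Lefty1* and the POU factor *Pou3f1* fell, by 2.23- and 3.20-fold. These were 12 of the 10674 genes tested (0.112%), 10 higher (0.0937%) and 2 lower (0.0187%), at an adjusted p under 0.05 in the quasi-likelihood test of edgeR, adjusted over all genes by the Benjamini-Hochberg method. An unadjusted p under 0.05 was reached by 709 genes (6.64%), 368 higher and 341 lower, and the median log2 fold change of all genes was -0.00056. The levels of all 12 genes at the 2 doses did not overlap, which held for 34.0% of all genes tested. It follows that they changed in the same direction in both replicate numbers. With DESeq2 on the same libraries, 2 genes passed (*Cdx1* and *T*), and the 12 genes were among the 14 with the smallest p. *Cdx1* alone passed when each of the 4 libraries was left out in turn; without replicate 2 of 2.5 µM 3 genes passed, *Cdx1* and *Lefty1* among them.

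**Figure D1:**
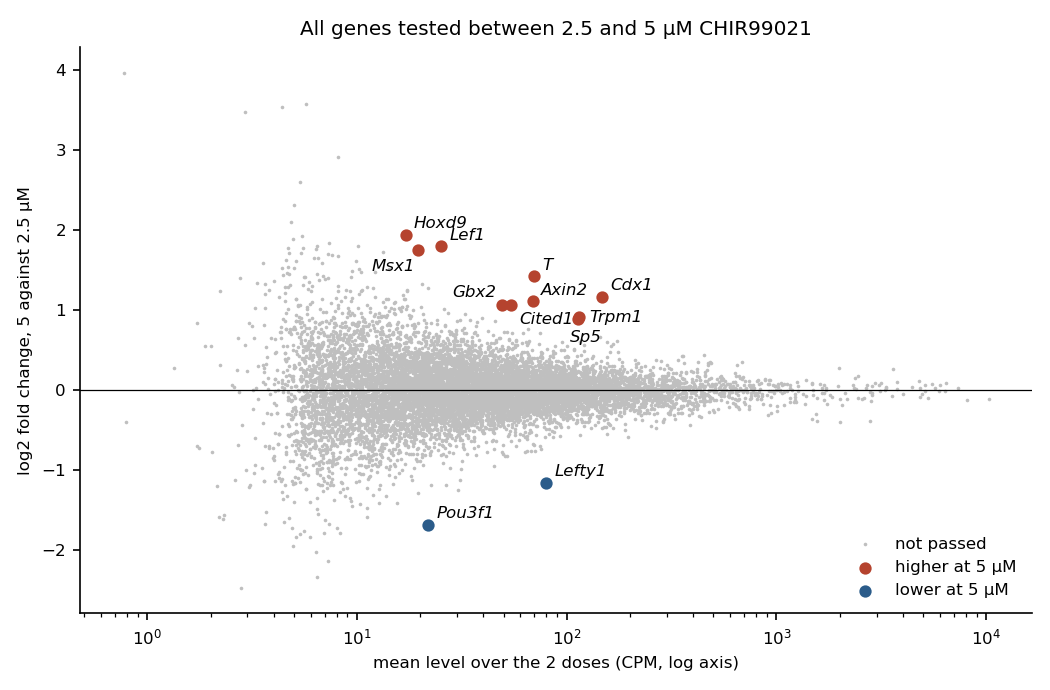
Each point is 1 of 10674 genes, with its mean level at 2.5 and 5 µM CHIR99021 in CPM on a log axis and its log2 fold change, 5 against 2.5 µM; red and blue points passed the test. The 10 genes that rose and the 2 that fell lay below 200 CPM, and none of the 876 genes above 200 CPM passed.

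Precision depended on the level. The median standard error (SE) of the log2 fold change was 0.45 below 20 CPM (3635 genes), 0.27 between 20 and 50 CPM, 0.20 between 50 and 100 CPM, and 0.13 above 200 CPM. Small changes in low genes were therefore not detectable at this depth.

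The ratio of the doses was also read within each set of libraries, with 1 library a dose and so no test. The log2 ratio of the plain CPM values in the low and the high mitochondrial set was 1.27 and 1.11 for *Cdx1*, 1.59 and 1.35 for *T*, 1.61 and 1.95 for *Lef1*, and 1.07 and 0.82 for *Trpm1*. It was 1.71 and 1.84 for *Msx1*, 1.05 and 0.82 for *Sp5*, 0.87 and 1.25 for *Cited1*, 0.91 and 1.19 for *Gbx2*, and -1.13 and -1.09 for *Lefty1*. The sets lay further apart in *Axin2* (1.64 and 0.81), *Hoxd9* (3.002 and 1.503) and *Pou3f1* (-1.05 and -1.96). All 12 genes had the same direction in both, which follows from levels that did not overlap between the doses.

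Of 10 β-catenin targets, 4 rose and 6 did not pass. This list was taken from the study, which chose it on dose correlation in these same libraries, so its direction is not independent evidence. *Cdx1*, a caudal-type homeobox factor of the posterior embryo, stood at 92.0 and 87.7 CPM at 2.5 µM and at 222 and 189.6 CPM at 5 µM. Both libraries at 5 µM lay far above both at 2.5 µM. The log2 fold change was 1.17 ± 0.16 (SE; 95% interval 0.86 to 1.49; edgeR adjusted p = 3.43e-05).

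*Axin2* (chr11:108920349-108950783 in GRCm38, as for the other positions), a scaffold of the destruction complex and a feedback inhibitor of the pathway, was at 37.4 and 44.2 CPM at 2.5 µM and at 116.8 and 77.8 CPM at 5 µM. The doses did not overlap, but the 2 libraries at 5 µM lay well apart. Its log2 fold change was 1.11 ± 0.22 (edgeR adjusted p = 0.00962), and without replicate 1 of 5 µM or replicate 2 of 2.5 µM it did not pass, with an edgeR adjusted p of up to 0.29. *Sp5* (chr2:70474923-70477729), a zinc finger repressor induced by Wnt signalling, went from 87.7 and 66.3 CPM to 181 and 117 CPM. Here too the spread within 5 µM was wide, and the smallest gap between the doses was that from 87.7 to 117 CPM. Its log2 fold change was 0.89 ± 0.19 (edgeR adjusted p = 0.0254), and without either of the same 2 libraries it did not pass (adjusted p up to 0.78). *Gbx2* (chr1:89927956-89931179), a homeobox factor that promotes self-renewal of naive ES cells, was at 35.9 and 28.2 CPM at 2.5 µM and at 67.4 and 64.3 CPM at 5 µM. The libraries of each dose lay close together, and the log2 fold change was 1.06 ± 0.23 (edgeR adjusted p = 0.0335), which passed in 1 of the 4 fits that left out a library, that without replicate 1 of 2.5 µM (edgeR adjusted p = 0.0300), and reached up to 0.78 in the others.

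The other 6 study targets all had higher means at 5 µM without passing. The membrane E3 ligase *Znrf3*, which removes Frizzled receptors from the cell surface, was at 25.9 and 18.3 CPM and then at 42.8 and 37.4 CPM (log2 fold change 0.88 ± 0.27, edgeR adjusted p = 0.30). *Notum*, a secreted enzyme that inactivates Wnt ligands, was at 8.62 and 16.0 CPM and then at 34.5 and 23.04 CPM (0.96 ± 0.34), and *Nkd1*, a Dishevelled inhibitor, at 17.2 and 9.15 CPM and then at 19.7 and 24.5 CPM (0.94 ± 0.35). For these 3 genes the doses did not overlap, but levels were low and the errors large. The ETS factor *Etv4* had a log2 fold change of 0.62 ± 0.29, the ligand *Bmp4* of 0.33 ± 0.18 and the T-box factor *Tbx3* of 0.16 ± 0.17. *Tbx3* overlapped between the doses, at 84.8 and 117 CPM against 128 and 111 CPM. The median log2 fold change of the 10 targets was 0.92, against -0.00056 for all genes, and 0.59 without replicate 2 of 2.5 µM.

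**Figure D2:**
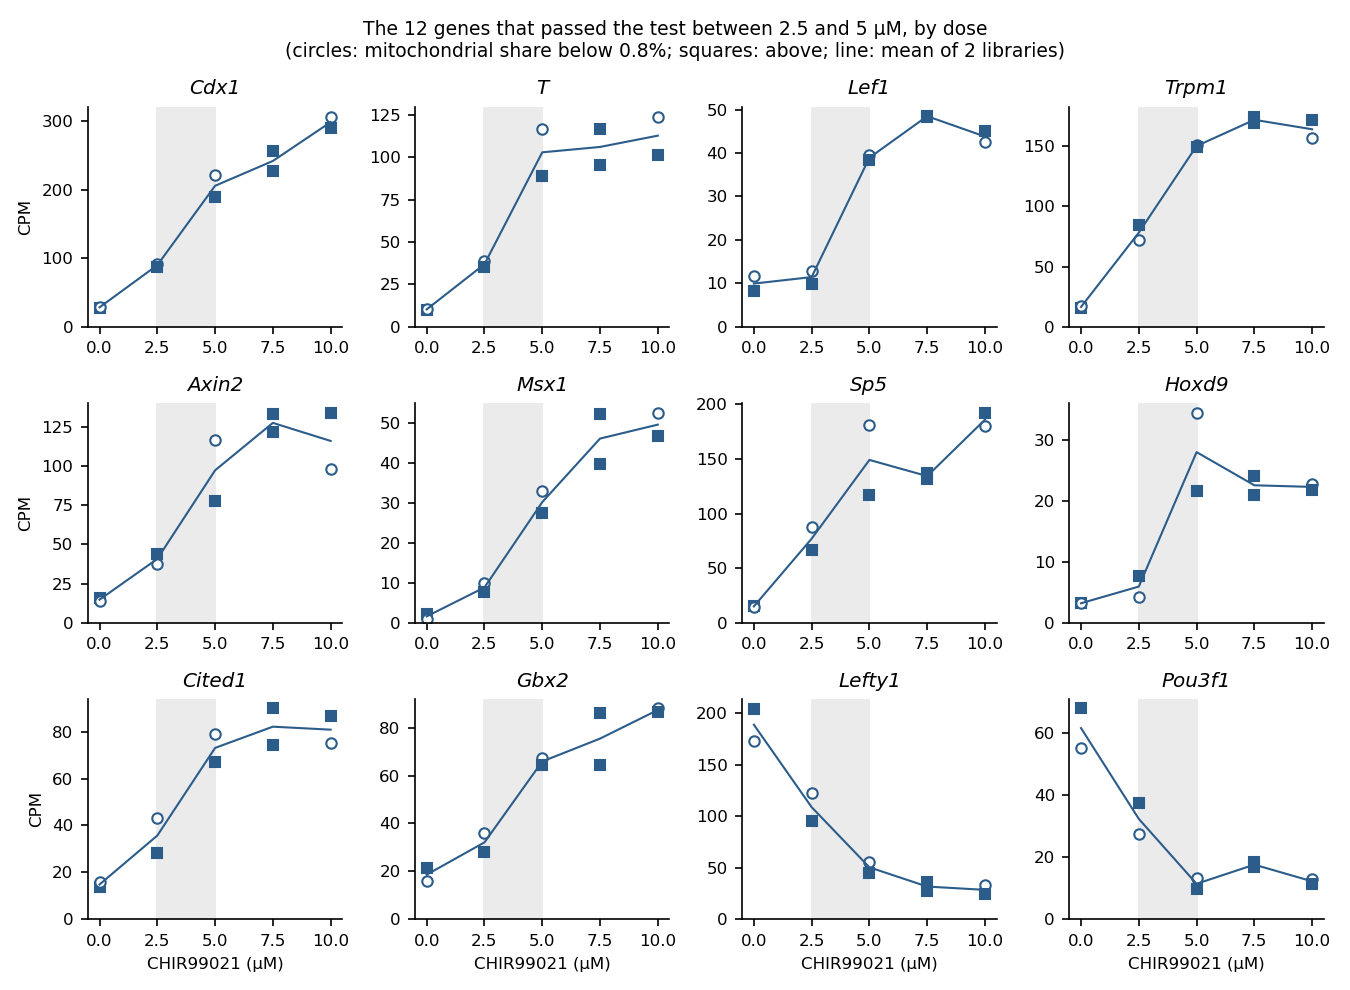
Level in CPM (vertical axis) of the 12 genes that passed the test, in the 10 libraries of the dose series against CHIR99021 in µM (horizontal axis); circles and squares are libraries with a mitochondrial share below and above 0.8%, lines join the means of 2 libraries and the grey band spans 2.5 to 5 µM. *Cdx1* went from 92.0 and 87.7 CPM at one edge of the band to 222 and 189.6 CPM at the other, and *Lefty1* from 122 and 95.3 CPM to 55.9 and 44.6 CPM.

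Of 23 other known Wnt targets, 16 were tested, and *T* and *Lef1* rose. *T* (Brachyury, chr17:8434423-8442496), the T-box factor that specifies mesoderm, was at 38.8 and 35.1 CPM at 2.5 µM and at 116.8 and 89.3 CPM at 5 µM. *Lef1* (chr3:131110471-131224356), a DNA-binding partner of β-catenin, was at 12.9 and 9.91 CPM at 2.5 µM and at 39.5 and 38.4 CPM at 5 µM. Both genes were separated clearly between the doses, and the 2 *Lef1* libraries at 5 µM were nearly equal. The log2 fold change was 1.43 ± 0.21 for *T* (edgeR adjusted p = 0.000251) and 1.80 ± 0.31 for *Lef1* (edgeR adjusted p = 0.00173). Among the fits that left out 1 library, *T* lost its call without replicate 2 of 2.5 µM (adjusted p = 0.11) and *Lef1* without replicate 2 of either dose (up to 0.40). The median of the 16 was 0.36. Without replicate 2 of 2.5 µM it was 0.55 over the members tested in that fit, which can differ from the 16. The cyclin *Ccnd2* (0.85 ± 0.24), the adhesion receptor *Cd44* (1.28 ± 0.36) and the zinc finger factor *Sp8* (1.38 ± 0.59) reached an unadjusted p under 0.05 without passing, and *Ccnd1* (0.18) and *Myc* (-0.13) did not.

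The promoter windows of 3 of these genes are shown because they hold the core letters bound by TCF and LEF factors. Windows of 300 bases (250 before and 50 after an annotated start) came from RefSeq on GRCm38.p6, and 9 of the 12 genes had at least 1. The motif searched was CTTTGA on either strand (TCAAAG when read on the other), and no other motif was searched. It occurred in 16.0% of all 32851 windows, and 4 of the 9 genes (*T*, *Lef1*, *Sp5* and *Trpm1*) had it in at least 1 window, against 18.2% of the 27025 genes with a window. Capitals mark the motif. In *T* (chr17:8434173-8434472, plus strand) it began 234 bases before the start. In *Lef1* it was found in 1 of 4 windows (chr3:131156044-131156343, plus strand), that of a start inside the gene, at 180 and 120 bases before it. In *Sp5* (chr2:70474673-70474972, plus strand) it began 204 and 104 bases before the start.
T: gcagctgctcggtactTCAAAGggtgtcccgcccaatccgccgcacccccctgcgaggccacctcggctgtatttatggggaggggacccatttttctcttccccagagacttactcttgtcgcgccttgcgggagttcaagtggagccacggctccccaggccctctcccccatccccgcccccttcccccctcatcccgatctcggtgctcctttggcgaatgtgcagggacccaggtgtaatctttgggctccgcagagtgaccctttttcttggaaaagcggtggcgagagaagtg
Lef1: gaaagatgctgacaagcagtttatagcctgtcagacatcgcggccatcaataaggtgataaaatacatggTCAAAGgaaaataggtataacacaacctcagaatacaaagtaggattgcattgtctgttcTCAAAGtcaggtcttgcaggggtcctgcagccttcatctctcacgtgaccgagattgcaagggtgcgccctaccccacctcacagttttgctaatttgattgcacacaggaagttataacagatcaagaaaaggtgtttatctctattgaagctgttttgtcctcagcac
Sp5: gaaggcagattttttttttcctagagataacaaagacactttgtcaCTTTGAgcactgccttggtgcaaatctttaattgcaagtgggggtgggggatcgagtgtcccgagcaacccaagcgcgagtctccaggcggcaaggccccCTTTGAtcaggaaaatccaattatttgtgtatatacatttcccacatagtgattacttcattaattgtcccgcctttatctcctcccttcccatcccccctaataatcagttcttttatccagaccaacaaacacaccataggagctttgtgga
A match of these letters is a description of the sequence and was not tested for binding.

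Most genes of posterior identity were low in these cells, with *Cdx1* an exception. Of 15 *Cdx* and *Hox* genes 4 were expressed highly enough to be tested, and *Cdx1* was the one that passed. *Hoxa9* was at 0 and 0.76 CPM at 2.5 µM and at 3.29 and 7.68 CPM at 5 µM, and *Hoxa7* at 4.31 and 1.52 CPM and then at 6.58 and 9.60 CPM. Both reached an unadjusted p under 0.05 without passing, on levels that include values within the limit of a count of 0. The 15 did not hold *Hoxd9* (chr2:74697727-74700208), a posterior *Hox* gene named here after its values were seen because it passed below the minimum level of 20 CPM set for named genes. It had 3 and 10 counts at 2.5 µM (4.31 and 7.62 CPM) and 21 and 45 counts at 5 µM (34.5 and 21.6 CPM). The 2 doses were separated, with a log2 fold change of 1.95 ± 0.41 (edgeR adjusted p = 0.0289), and the call held in 1 of the 4 fits that left out a library, that without replicate 2 of 5 µM, with an adjusted p of up to 0.34 in the others. Among 15 genes of the primitive streak and mesendoderm, 7 were tested and *T* was the one that passed. *Mixl1* (1.34), *Evx1* (0.55) and *Eomes* (-0.24) did not, and *Foxa2*, *Cer1* and *Msgn1* were at 0 in all 4 libraries. The median log2 fold change was 1.47 for the 4 tested *Cdx* and *Hox* genes and 0.55 for the 7 streak genes. The filter on low counts was applied anew in each fit that left out 1 library. It can admit more genes when a dose has 1 library, so the medians of such fits can cover other list members. For the *Cdx* and *Hox* genes they were 2.02 to 5.07 (5.07 without replicate 2 of 2.5 µM). For the streak genes they ran from 0.00067 (without replicate 2 of 5 µM) to 1.17 (without replicate 2 of 2.5 µM).

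In the lists of other signalling pathways, 1 Nodal and 1 BMP gene passed. In the Nodal list *Lefty1* (chr1:180935022-180938400), a secreted antagonist of Nodal, was at 122 and 95.3 CPM at 2.5 µM and at 55.9 and 44.6 CPM at 5 µM. Both libraries at 5 µM were below both at 2.5 µM, and the log2 fold change was -1.15 ± 0.20 (edgeR adjusted p = 0.00173), with the call lost in 1 of the 4 fits that left out a library, that without replicate 2 of 5 µM (adjusted p = 0.44), and with DESeq2 (adjusted p = 0.11). Its close paralog *Lefty2*, with which it may share reads, was at 77.6 and 86.1 CPM and then at 42.8 and 51.8 CPM (-0.75 ± 0.20, edgeR adjusted p = 0.18). The Nodal co-receptor *Tdgf1* (-0.38 ± 0.12) and *Nodal* itself (-0.43) did not pass, and the median of the 9 genes was -0.28 (-0.16 without replicate 2 of 2.5 µM and -0.17 without replicate 1 of 5 µM).

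In the BMP list *Msx1* (chr5:37820485-37824583), a homeobox gene induced by BMP signals, was at 10.1 and 7.62 CPM at 2.5 µM (7 and 10 counts) and at 32.9 and 27.4 CPM at 5 µM (20 and 57 counts). The doses were far apart for so low a level, with a log2 fold change of 1.75 ± 0.36 (edgeR adjusted p = 0.0248). The call held only without replicate 1 of 2.5 µM among the 4 fits that left out a library, and the adjusted p was up to 0.71 in the others. Its relative *Msx2* (1.25 ± 0.47) and the helix-loop-helix inhibitors *Id1* (0.66 ± 0.29), *Id2* (0.72 ± 0.21) and *Id3* (0.65 ± 0.26) reached an unadjusted p under 0.05 without passing. The median of the 10 BMP genes was 0.57, and it was 0.30 without replicate 2 of 2.5 µM and 0.93 without replicate 2 of 5 µM.

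*Trpm1* and *Cited1* rose and belonged to no list. *Trpm1* (chr7:64153835-64269775), a cation channel known from melanocytes and the retina, was at 71.9 and 84.6 CPM at 2.5 µM and at 151 and 149 CPM at 5 µM. *Cited1* (chrX:102247381-102252181), a transcriptional cofactor, was at 43.1 and 28.2 CPM and then at 79.0 and 67.2 CPM. The 2 *Trpm1* libraries at 5 µM were nearly equal, whereas those of *Cited1* at 2.5 µM lay further apart. The log2 fold changes were 0.91 ± 0.16 (edgeR adjusted p = 0.00173) and 1.06 ± 0.23 (edgeR adjusted p = 0.0298), and *Trpm1* was lost without replicate 2 of either dose (adjusted p up to 0.092) and *Cited1* without any library but replicate 1 of 2.5 µM (up to 0.78). Just outside the threshold were *Cd24a* (0.67 ± 0.15, adjusted p = 0.073), *Cbr3* (-0.95 ± 0.22, adjusted p = 0.088) and *Grsf1* (0.62 ± 0.15, adjusted p = 0.097).

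No gene of naive or core pluripotency passed. *Pou3f1* (Oct6, chr4:124656807-124660655), a POU factor of the primed epiblast, was at 27.3 and 37.4 CPM at 2.5 µM and at 13.2 and 9.60 CPM at 5 µM. The 2 doses did not overlap, and it fell by 1.68 ± 0.32 on the log2 scale (edgeR adjusted p = 0.00846), with the call lost without replicate 2 of either dose (adjusted p up to 0.61). The list of primed genes, of which 6 were tested, also holds *Lef1*, so its 2 members that passed went in opposite directions, and *Dnmt3a*, *Dnmt3b* and *Otx2* did not pass. Of 13 naive genes, 2 had a log2 fold change above 0 (*Klf4* and *Tbx3*), the median was -0.13 (-0.23 without replicate 2 of 2.5 µM), and *Tcl1* (-0.76 ± 0.19) and *Nanog* (-0.38 ± 0.15) had the smallest unadjusted p. *Nanog* was at 273 and 243 CPM at 2.5 µM and at 188 and 205 CPM at 5 µM. Of 9 core genes, *Lin28a* alone had a log2 fold change above 0, the median was -0.29, and *Utf1* (-0.47 ± 0.13), *Tdgf1*, *Sall4* (-0.29) and *Dppa2* (-0.54) reached an unadjusted p under 0.05.

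The machinery of the pathway itself did not change detectably. None of the 26 tested receptors, destruction complex members and nuclear partners (of 31) passed, and their median was 0.07. Without replicate 2 of 5 µM the median of the members tested in that fit was -0.034. *Ctnnb1*, which encodes β-catenin, was at 362 and 456 CPM at 2.5 µM and at 457 and 445 CPM at 5 µM, so the doses overlapped, and the 95% interval of its log2 fold change ran from -0.15 to 0.40. *Gsk3a* was at 71.9 and 58.7 CPM and then at 60.9 and 69.6 CPM, and *Gsk3b* at 54.6 and 58.7 CPM and then at 64.2 and 62.4 CPM, with intervals of -0.35 to 0.47 and -0.30 to 0.57. The TCF factor *Tcf7l1*, a repressor in ES cells, had a log2 fold change of -0.34 ± 0.17, the receptor *Fzd10* of 0.57 ± 0.28, the Wnt sorting receptor *Wls* of 0.51 ± 0.23 and the Dishevelled gene *Dvl1* of -0.59 ± 0.26, each at an unadjusted p under 0.05.

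In all, 283 genes were in the 23 lists and 227 of them were tested, of which 7 rose and 2 fell. No member passed in the lists of primitive endoderm, neural, trophectoderm and fibroblast markers, FGF and ERK response, G1 cyclins and CDK inhibitors, sterol and fatty acid synthesis, hypoxia and glycolysis, ATF4 response, lysosome, glycogen metabolism, cadherins and p53 targets. Their medians ran from -0.77 for the 3 tested fibroblast markers to 0.34 for the 8 trophectoderm markers. Over the members tested in each such fit, the fibroblast median was -0.035 without replicate 2 of 2.5 µM and -0.13 without replicate 2 of 5 µM. The trophectoderm median was 0.17 without replicate 1 and 0.52 without replicate 2 of 5 µM. In the latter list the keratins *Krt8* (0.42 ± 0.13) and *Krt18* (0.43 ± 0.13) and the transcription factor *Tfap2c* (-0.82 ± 0.22) reached an unadjusted p under 0.05. Of the 10 tested FGF and ERK genes, 8 had a log2 fold change above 0 and the median was 0.16. At an unadjusted p under 0.05, 2 of them were higher and 1 lower, the ligand *Fgf4* (-0.42 ± 0.15). In the list of G1 cyclins and CDK inhibitors 3 were higher by this measure and 1 lower, and the inhibitor *Cdkn1a* had 0.35 ± 0.12. The sterol list had 3 higher and the lysosome list 4, and neither had any lower.

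**Figure D3:**
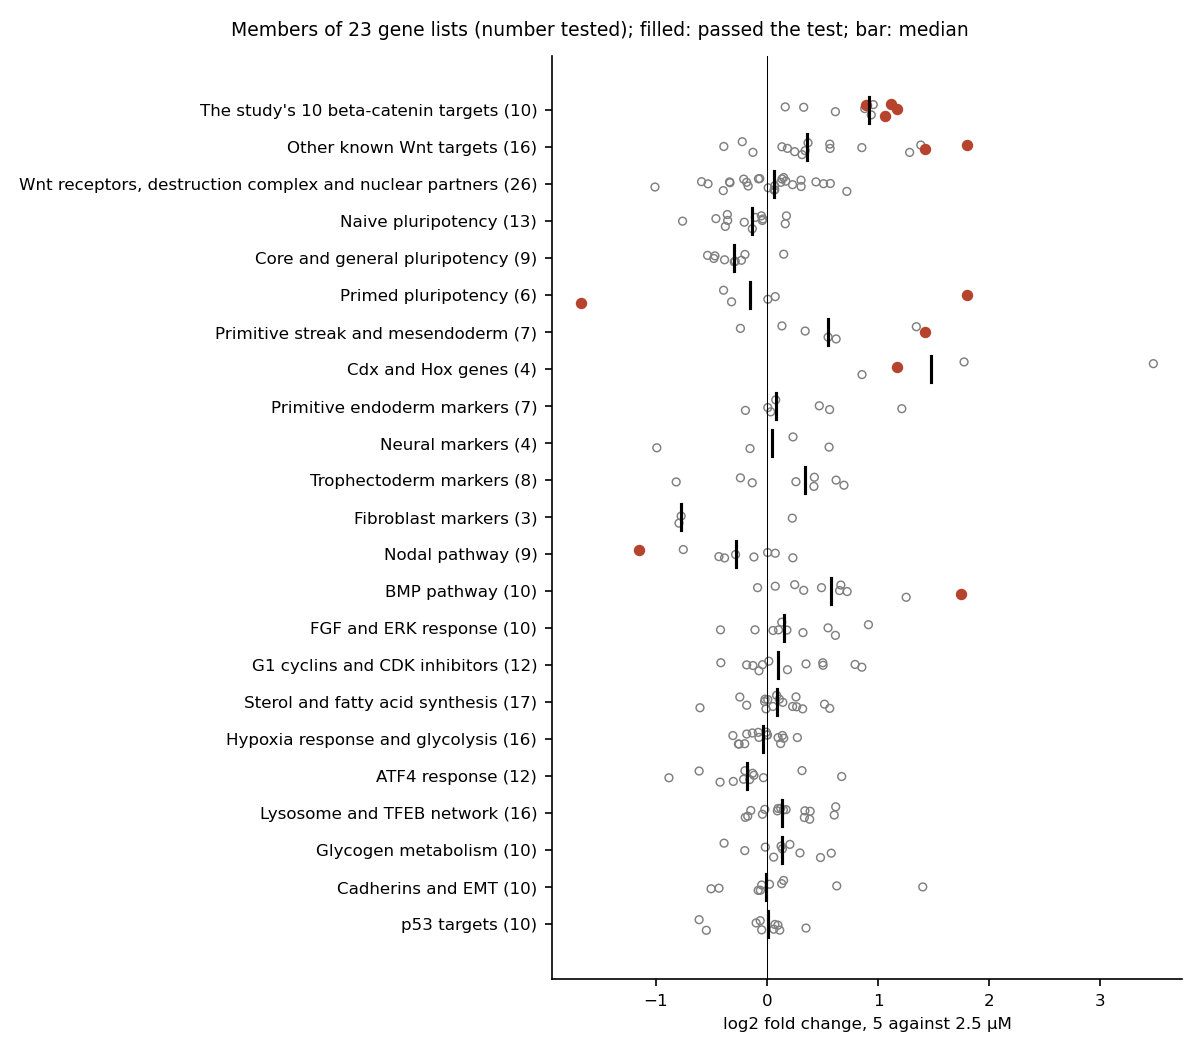
Log2 fold change, 5 against 2.5 µM, of each tested member of the 23 lists (rows, with the number tested); filled points passed the test and vertical bars are list medians. The study's targets were centred at 0.92 and 4 of 10 passed, whereas the bars of the pathway machinery (0.07) and of naive genes (-0.13) lay near 0.

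The 2 sets of libraries also differed in depth, and the fit cannot tell set and depth apart. When the set was added as a term, 81 genes passed (0.759%), 41 higher and 40 lower, including all 12 named above, and the common biological coefficient of variation fell to 0.0515 from 0.0899. The mitochondrial share was lower at 5 than at 2.5 µM within both sets, at 0.485 against 0.551% and at 0.986 against 1.26%, and its part in these calls was not tested. Of the list members 24 passed. Among those added, *Tdgf1* had a log2 fold change of -0.38 (edgeR adjusted p = 0.0013 with the set term), *Krt18* of 0.45 (adjusted p = 0.0086), *Utf1* of -0.47 (adjusted p = 0.011), *Tcl1* of -0.75, *Lefty2* of -0.74, *Id2* of 0.71, *Cdkn1a* of 0.35 and *Cd44* of 1.31. Outside the lists, *Cd24a* (0.69), *Grsf1* (0.64) and *Cbr3* (-0.96) also passed.

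The step was set beside its neighbours in the same fit, which share the 2.5 µM or the 5 µM libraries with it. Of all genes, 248 (2.32%) passed between 0 and 2.5 µM and 2 (0.0187%) between 5 and 7.5 µM. *Lef1* was at 8.15 and 11.7 CPM without CHIR99021, and its log2 fold change was 0.25 ± 0.41 from 0 to 2.5 µM, 1.80 ± 0.31 from 2.5 to 5 µM and 0.31 ± 0.21 from 5 to 7.5 µM. *Hoxd9* went by 1.00 ± 0.62, 1.95 ± 0.41 and -0.17 ± 0.29 and *Gbx2* by 0.71 ± 0.28, 1.06 ± 0.23 and 0.17 ± 0.18, and only the middle value passed for each of these 3 genes and for *Msx1* (2.20 ± 0.64, 1.75 ± 0.36 and 0.64 ± 0.23). None of the 12 genes differed between the steps in the test of that difference given further on. *Trpm1* had 2.31 ± 0.22, 0.91 ± 0.16 and 0.18 ± 0.13, and *Sp5* 2.33 ± 0.26, 0.89 ± 0.19 and -0.08 ± 0.16. *Cdx1* had 1.69 ± 0.20, 1.17 ± 0.16 and 0.24 ± 0.13, *T* 1.87 ± 0.32, 1.43 ± 0.21 and 0.08 ± 0.17, and *Axin2* 1.48 ± 0.29, 1.11 ± 0.22 and 0.47 ± 0.17. *Lefty1* had -0.82 ± 0.16, -1.15 ± 0.20 and -0.63 ± 0.22, and *Pou3f1* -0.88 ± 0.23, -1.68 ± 0.32 and 0.73 ± 0.34.

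As a share of the difference in mean CPM between 0 and 10 µM, the step from 2.5 to 5 µM made up 81.2% in *Lef1*, 64.4% in *T*, 55.8% in *Axin2*, 42.9% in *Cdx1*, 42.2% in *Sp5* and 36.4% in *Lefty1*. The step from 5 to 7.5 µM made up 28.2, 3.10, 29.9, 13.4, -8.66 and 11.6% in the same order. In *Hoxd9* the mean at 5 µM was above that at 10 µM, and the step made up 115.6%. These genes were named because they passed at this step, so their shares are no separate evidence that it was large. No error was estimated for the shares.

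**Figure D4:**
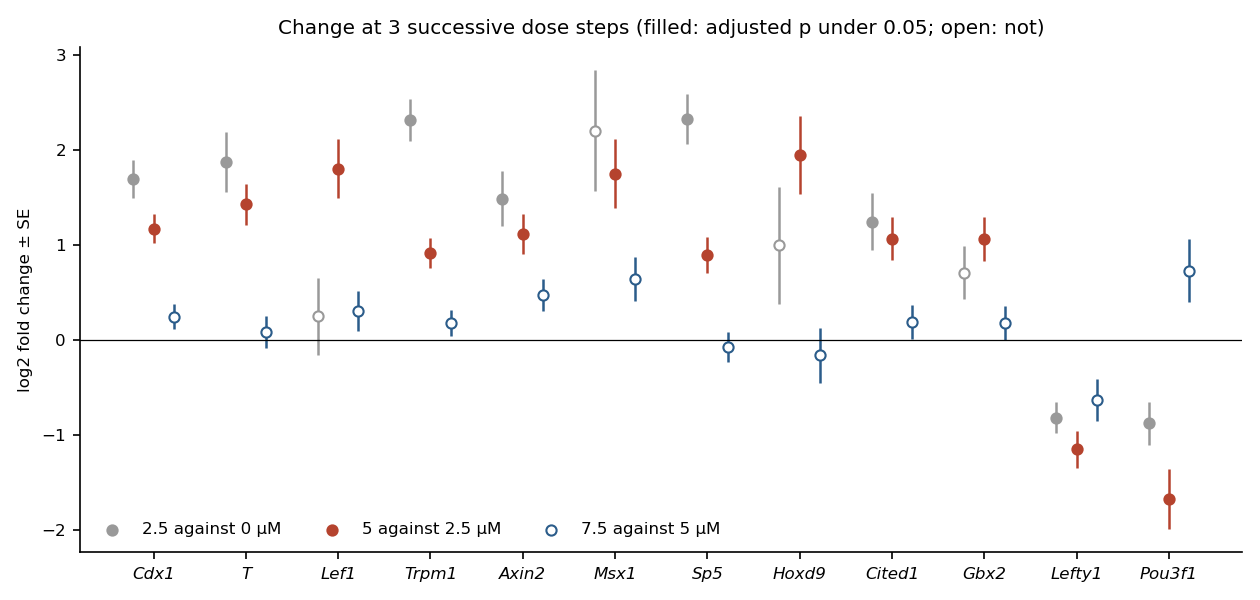
Log2 fold change with its SE (vertical axis) of the 12 genes at 3 successive dose steps, from the fit of all 10 libraries; filled points had an adjusted p under 0.05. *Lef1* had 0.25, 1.80 and 0.31, whereas *Trpm1* had 2.31, 0.91 and 0.18, and no blue point, for 7.5 against 5 µM, was filled.

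The difference between the steps was tested directly. Against the step from 0 to 2.5 µM, 2 of 10674 genes passed (0.0187%), neither of them among the 12. *Col1a1*, a fibrillar collagen, was at 24.5 and 13.8 CPM at 0 µM, at 64.7 and 58.7 CPM at 2.5 µM and at 37.8 and 35.04 CPM at 5 µM, and *Vim*, the intermediate filament vimentin, at 146.8 and 146.7, 313 and 332, and 319 and 299 CPM. The libraries of *Col1a1* at 5 µM lay between those of the other 2 doses, and those of *Vim* at 2.5 and 5 µM overlapped. The step of *Col1a1* from 2.5 to 5 µM did not itself pass (-0.77 ± 0.23, edgeR adjusted p = 0.30). The step differences were -2.36 ± 0.41 (edgeR adjusted p = 0.0103) and -1.25 ± 0.23 (edgeR adjusted p = 0.0156). Among the 6 fits that left out 1 library of these doses, *Col1a1* passed in 2 (without replicate 1 of 0 µM or of 5 µM; adjusted p up to 0.20 in the others) and *Vim* in 1 (without replicate 1 of 5 µM; up to 0.27 in the others). *Tmem181a* (-1.26 ± 0.28, adjusted p = 0.16), *Bckdha* (1.68 ± 0.40, adjusted p = 0.25) and *Trpm1* (-1.40 ± 0.33, adjusted p = 0.25) came next among genes above 20 CPM. Against the step from 5 to 7.5 µM no gene passed in edgeR or DESeq2, and 398 (3.73%) had an unadjusted p under 0.05 in edgeR. The 5 genes of smallest p above 20 CPM were *Pou3f1* (-2.41 ± 0.58), *T* (1.34 ± 0.33), *Cdx1* (0.93 ± 0.25), *Cd24a* (0.88 ± 0.25) and *Lef1* (1.498 ± 0.45), but this difference contains the step on which all but *Cd24a* had passed, so it is no separate evidence on them.

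The clones gave a readout that shares no library with the dose series. Every clone had a higher mitochondrial share (1.53 to 2.52%) than any library of the dose series (0.485 to 1.46%). Levels are set side by side below, and the part of this difference in them was not tested. The 5 clones with a codon 37 substitution (S37A, S37C, S37F in 2 clones and S37Y) were compared with the 4 at codon 45 (S45C, S45F in 2 clones and S45P). The test took clones as its units, so the 2 clones of S37F and the 2 of S45F counted separately. Its p-values measure the spread between clones within a codon, which mixes different substitutions. Of 9520 genes tested, 936 passed (9.83%), 471 higher (4.95%) and 465 lower (4.88%) at codon 37. Of the 12 genes, 10 were expressed highly enough to be tested in the clones. Of the 8 that rose with dose, 4 were higher in the codon 37 clones (*Cdx1*, *T*, *Axin2* and *Sp5*), and both that fell with dose were lower.

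*Cdx1* was at 271 (S37A), 253 (S37C), 278 and 334 (S37F) and 262 CPM (S37Y), against 34.7 (S45C), 81.6 and 68.8 (S45F) and 61.2 CPM (S45P). All 5 codon 37 clones lay above both libraries at 5 µM, and all 4 codon 45 clones below both libraries at 2.5 µM (log2 difference 2.16 ± 0.18, edgeR adjusted p = 3.49e-06). *T* was at 36.5 to 58.3 CPM in the codon 37 clones and at 10.0 to 19.6 CPM in the codon 45 clones (1.70 ± 0.24, edgeR adjusted p = 0.000477), so no clone reached the 89.3 CPM of the lower library at 5 µM. *Axin2* was at 63.4 to 87.4 CPM against 22.6 to 33.3 CPM (1.53 ± 0.18, edgeR adjusted p = 7.98e-05).

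*Sp5* was at 61.7 to 128 CPM against 36.4 to 64.2 CPM, ranges that overlap, and its difference (0.75 ± 0.22, edgeR adjusted p = 0.0447) passed in 2 of the 9 fits that left out 1 clone, those without S37Y and without 1 of the S45F clones. *Lefty1* was at 10.4 to 40.6 CPM in the codon 37 clones and at 71.6 to 125 CPM in the codon 45 clones (-2.07 ± 0.31, edgeR adjusted p = 0.000585), and *Pou3f1* at 5.60 to 16.3 CPM against 25.7 to 149 CPM (-2.63 ± 0.44, edgeR adjusted p = 0.00145). Neither range overlapped the other, although *Pou3f1* spread widely at codon 45. *Lef1* (0.45 ± 0.42), *Trpm1* (1.15 ± 0.51), *Cited1* (0.74 ± 0.38) and *Gbx2* (0.19 ± 0.19) did not pass. *Gbx2* was above both untreated libraries of unedited cells in all 9 of these clones, at 63.4 to 136.3 CPM, against 21.2 and 15.9 CPM. *Hoxd9*, not tested in the clones, was at most 6.05 CPM in any clone, against 21.6 and 34.5 CPM at 5 µM. The 6 codon 41 clones were not in the test between codons 37 and 45. There *T* was at 15.6 and 27.5 (T41A), 17.2 and 17.1 (T41I), 8.07 (T41N) and 48.6 CPM (T41S). *Cdx1* was at 115 and 258, 247 and 207, 32.3 and 35.6 CPM in the same order. The paper describes T41S as well tolerated and T41A and T41I as the strongest at this position. *T* did not follow that order in the T41S clone, whereas the T41N clone lay below all T41A and T41I clones. With 1 clone each of T41S and T41N, substitution and clone cannot be told apart.

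**Figure D5:**
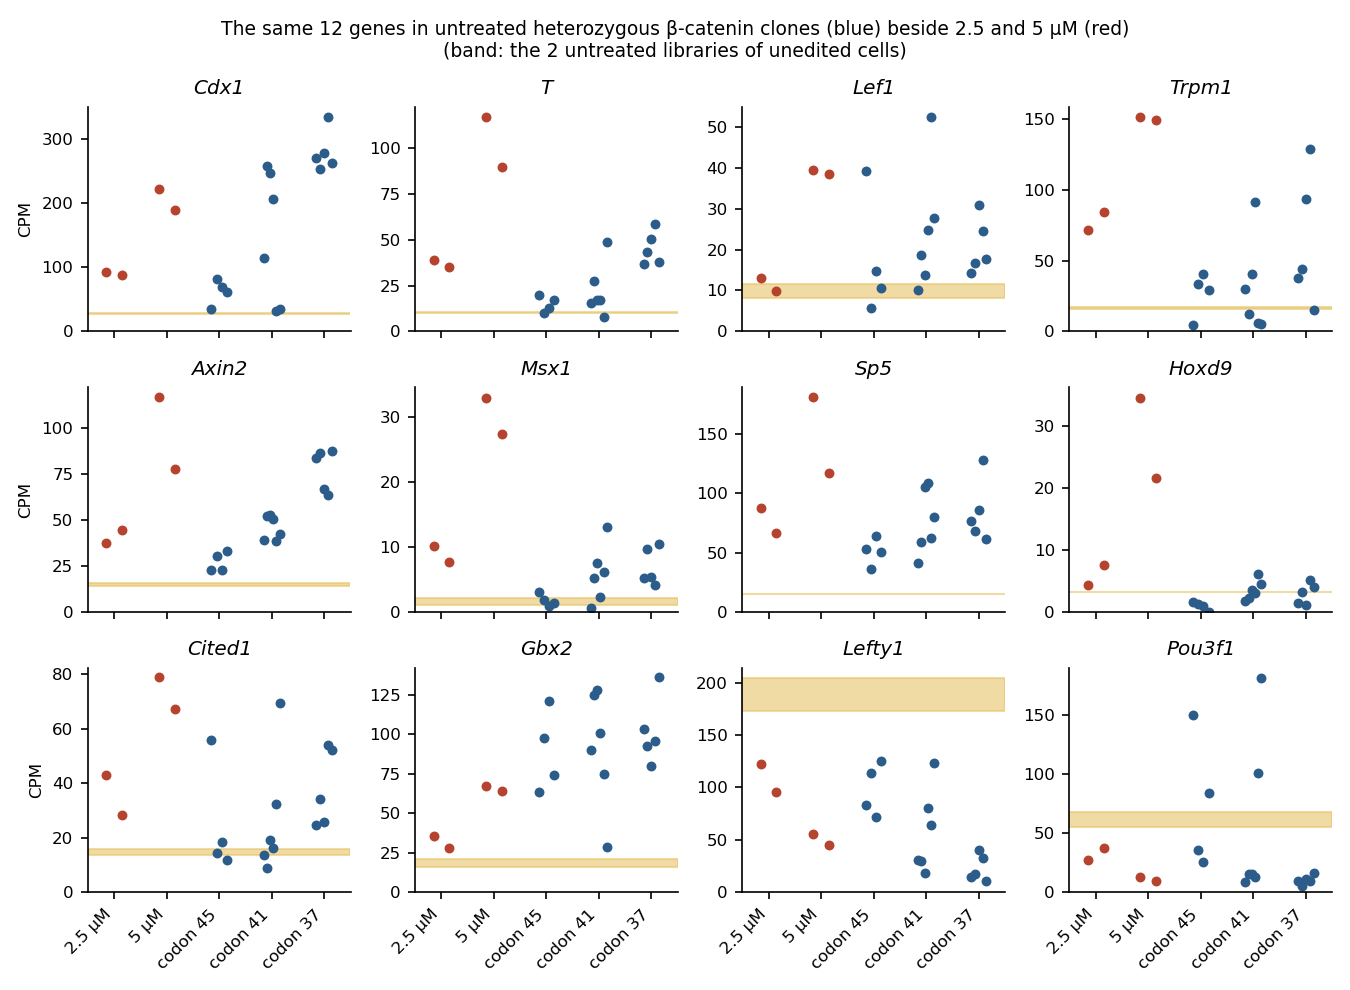
Level in CPM (vertical axis) of the 12 genes at 2.5 and 5 µM CHIR99021 (red, 2 libraries each) and in the untreated clones with a substitution at codon 45 (4), 41 (6) or 37 (5), in blue; the yellow band is the range of the 2 untreated libraries of unedited cells. The codon 37 clones lay above the codon 45 clones for *Cdx1* (253 to 334 against 34.7 to 81.6 CPM) and below them for *Lefty1* (10.4 to 40.6 against 71.6 to 125 CPM).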

How the data were processed

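RNA was measured by mcSCRB-seq, a 3′ method with UMIs. The authors deposited UMI counts per gene with no normalization. Reads were trimmed (Cutadapt), cleared of rRNA reads (SortMeRNA) and aligned to mm10 (RNA STAR). Duplicates were removed by UMI (UMI-tools), and a separate step in Picard also filtered duplicates. The paper does not state whether Picard used the UMIs. Counting was done in featureCounts (version 2.0.1 in the submitters' processing notes). The annotation release and the strand setting are not given in the sources used here, so genes overlapping on the other strand, such as *Pou3f1* and *Gm2164* or *Gbx2* and *D130058E05Rik*, may share counts. Gene names matched for 48058 of 48440 IDs, and positions came from GENCODE on GRCm38 (equal to mm10).

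The 10 CHIR99021 libraries (306157 to 2083398 counts) were fitted in edgeR 4.0.16 (R 4.3.3) with dose as a factor of 5 levels, TMM normalization, filterByExpr with a minimum count of 10 and the quasi-likelihood F-test; the contrast was 5 minus 2.5 µM. The residual degrees of freedom were 5. The 95% intervals used 41.2 degrees of freedom, the residual ones plus those that edgeR borrowed across genes. The 9 codon 37 and 45 clones (662881 to 2025273 counts) were fitted separately. SE is the log2 fold change divided by the square root of F. The scripts were tested on simulated data. Alternatives were RLE, DESeq2 1.42.0, other filters, only the 4 libraries, thinning, terms for set and replicate, and leaving out libraries; only the 4 libraries with a replicate term was added after seeing the data.

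Named genes were the study's 10 targets, *Ctnnb1*, *Gsk3a*, *Gsk3b*, list members that passed, the 10 largest rises and falls that passed without overlap at a mean level of 20 CPM or more, and for each step difference the 5 genes of smallest p above 20 CPM. Members, lists and tests were chosen with earlier results of these data known. Other list members are given as values.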

Additional observations from a re-analysis of the deposited data

Results flagged for a closer look

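*Cited1* in the codon 45 clones had 1 clone apart from the rest: S45C stood at 55.8 CPM, the other 3 at 11.98 to 18.3 CPM. It was the only such case in 36 groups tested (12 genes in 3 clone groups). Chance gives about 1 in 20 groups, so 1 case is no more than chance would give. Without that clone *Cited1* passed between codon 37 and codon 45. The clone was picked out by its own *Cited1* value, so this is no separate evidence.

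*Col1a1* changed differently at the steps from 2.5 to 5 µM and from 0 to 2.5 µM, by -2.36 on the log2 scale (edgeR adjusted p = 0.0103). *Vim* did so by -1.25 (edgeR adjusted p = 0.0156). With DESeq2 neither difference passed. The sum of the 8 fibroblast markers was 94.8 and 107 CPM at 2.5 µM and 75.7 and 66.2 CPM at 5 µM, with *Lum* at 0. *Col1a1* itself made up most of this sum, with means of 61.7 and 36.4 CPM, so the sum is no separate readout. The part of such cells in the *Col1a1* values was not tested.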

How the results depend on the processing

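The 12 genes of the step kept their direction under each alternative in which they were tested. RLE gave 12 genes, the same ones, and the mean filter of 20 CPM gave 11. The count moved to 2 with DESeq2, 19 with no filter, 5 with only the 4 libraries, 0 with all libraries thinned to 306157 counts, 81 with the mitochondrial set as a term and 7 at an adjusted p under 0.01. The list members that passed (9) moved to 2 with DESeq2, 4 with only the 4 libraries, 0 after thinning and 24 with the set term. The genes whose step differed from that of 0 to 2.5 µM (2) moved to 0 with DESeq2, 12 with no filter, 0 after thinning and 17 with the set term, and those differing from 5 to 7.5 µM (0) to 8 with no filter and 2 with the set term. Thinning and fewer libraries leave fewer counts or degrees of freedom; for the rest, the cause was not tested.

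The replicate numbers were not taken to pair libraries: with 2 per dose and no source for the numbering, the correlation of same-numbered deviations was 0.19 between 2.5 and 5 µM and -0.23 to 0.17 between other doses. With a replicate block the step gave 12 genes, the same ones, 9 of them list members, and 2 and 0 genes for the step differences. With only the 4 libraries and a replicate block, added after seeing the data, it gave 6, 5 of them list members.

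Leaving out 1 library gave 3 to 20 genes for the step (20 without replicate 1 of 2.5 µM, 3 without its replicate 2, 6 without either library of 5 µM) and 2 to 9 list members. It gave 0 to 4 genes for the difference from the first step and 0 to 1 for that from the next. Leaving out 1 clone gave 503 to 1035 genes between codon 37 and codon 45, with 503 without S37A, 537 without S37C and 622 without S45P.

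Among the genes, signs changed in ones that did not pass. After thinning, *Ctnnb1* had a log2 fold change of -0.0059, *Vim* of 0.042 and *Tmem181a* of 0.21. Over the fits without 1 library, *Vim* ran from -0.13 to 0.0060, *Bckdha* from -0.15 to 0.31, *Gsk3a* from -0.14 to 0.21 and *Tmem181a* from -0.16 to 0.21. Of the 23 list medians, 8 changed sign in such a fit (machinery, primed, neural, cyclins, sterol, glycogen, cadherins and p53), and the other 15 kept theirs. Among the former, primed ran from -0.41 to 0.11 and neural from -1.62 to 0.067. The filter on low counts was applied anew in each such fit. For lists with members not tested in the main fit, these medians can therefore cover other members.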
